A study of Homo sapiens with 4 samples.

Results

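The cytosolic heat shock chaperones examined here are 10 human genes: the HSP70 genes HSPA1A, HSPA1B, HSPA6 and HSPA8, the HSP110 gene HSPH1, the HSP90 genes HSP90AA1 and HSP90AB1, the J-domain genes DNAJB1 and DNAJA1, and the small heat shock protein gene HSPB1. They were chosen by name, as every gene probe of an Agilent expression array that carried a member's symbol, which gave 17 probes for 10 of 43317 gene names. RNA came from 2 established cancer cell lines, HCT116 (colorectal) and A549 (lung), each transfected with Dharmafect1 and either the microRNA miR-891b or the negative control NC1. Crossing line and transfected RNA gave 4 groups, each with 100 ng of total RNA on 1 array, and the labels give no time after transfection and no dose. The series as a whole concerns PSAT1, an enzyme of serine synthesis, and the vesicles that cancer cells release.

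Heat shock chaperones bind unfolded or partly folded proteins and keep them from clumping. HSP70 proteins take up client stretches in cycles driven by ATP, J-domain proteins bring clients and start the ATP step, HSP110 proteins exchange the nucleotide, HSP90 finishes the folding of kinases and receptors, and small heat shock proteins hold clients without ATP. Stress-induced members are switched on by heat shock factor 1, which binds arrays of short inverted repeats in their promoters, whereas HSPA8 and HSP90AB1 are known as the abundant everyday forms.

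The sequence delivered to the treated cells and the promoters of members with contrasting values are shown first. The mature miR-891b, from RefSeq on GRCh38.p14 (chrX:146001100-146001121, minus strand), is 22 bases long, and capitals mark its seed, bases 2 to 8.
miR-891b: uGCAACUUaccugagucauuga
The heptamer AAGTTGC, which pairs with that seed, was found in 0 of the 17 member probes and in 229 of all 58201 probes (0.393%). A probe covers only 60 bases of a transcript, so this count is no search of the whole transcripts.

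Promoter windows of 250 bases ending just before each start were taken from RefSeq (GRCh38.p14), where all 10 members matched, with 15 windows between them. Each window was searched for the paired heat shock repeat, GAANNTTC or TTCNNGAA, and for its longer form, GAANNTTCNNGAA or TTCNNGAANNTTC. Each paired motif is its own reverse complement and the longer ones are reverse complements of each other, so both strands were covered, and the longer form contains the paired one. The windows printed below are those of the near-identical pair HSPA1A and HSPA1B, of DNAJB1 and HSPB1, which had the largest changes in A549 and HCT116, and of HSP90AA1 and HSPA8, which carried the longer form. Where a gene has several starts, the window with most matches is shown, from 5′ to 3′ along the gene, with matches in capitals.
HSPA1A (chr6:31815293-31815542, plus strand): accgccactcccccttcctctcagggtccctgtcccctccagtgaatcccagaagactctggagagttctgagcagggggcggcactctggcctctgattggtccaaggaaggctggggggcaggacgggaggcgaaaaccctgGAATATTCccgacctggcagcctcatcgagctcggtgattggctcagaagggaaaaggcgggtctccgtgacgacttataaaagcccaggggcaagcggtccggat
HSPA1B (chr6:31827488-31827737, plus strand): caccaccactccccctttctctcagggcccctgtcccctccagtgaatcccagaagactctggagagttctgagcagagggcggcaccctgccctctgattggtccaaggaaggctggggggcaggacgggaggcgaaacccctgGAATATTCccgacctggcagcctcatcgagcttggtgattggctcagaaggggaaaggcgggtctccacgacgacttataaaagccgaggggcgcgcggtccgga
HSPA8 (chr11:123062137-123062386, minus strand): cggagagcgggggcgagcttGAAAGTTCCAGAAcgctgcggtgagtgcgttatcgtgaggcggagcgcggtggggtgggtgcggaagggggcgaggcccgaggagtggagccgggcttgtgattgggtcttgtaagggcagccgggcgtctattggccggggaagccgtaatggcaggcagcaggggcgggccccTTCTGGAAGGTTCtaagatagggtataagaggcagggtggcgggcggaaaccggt
HSP90AA1 (chr14:102087045-102087294, minus strand): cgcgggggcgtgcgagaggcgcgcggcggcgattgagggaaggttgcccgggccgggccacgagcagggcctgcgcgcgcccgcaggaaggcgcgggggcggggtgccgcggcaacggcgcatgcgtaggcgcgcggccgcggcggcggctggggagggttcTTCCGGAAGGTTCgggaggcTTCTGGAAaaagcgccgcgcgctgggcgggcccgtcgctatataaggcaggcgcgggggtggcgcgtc
DNAJB1 (chr19:14518398-14518647, minus strand): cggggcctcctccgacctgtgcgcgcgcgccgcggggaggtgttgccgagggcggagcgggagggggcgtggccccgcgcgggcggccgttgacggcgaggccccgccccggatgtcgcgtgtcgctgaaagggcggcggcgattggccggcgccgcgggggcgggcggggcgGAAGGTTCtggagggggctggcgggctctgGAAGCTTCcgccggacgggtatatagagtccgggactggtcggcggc
HSPB1 (chr7:76302423-76302672, plus strand): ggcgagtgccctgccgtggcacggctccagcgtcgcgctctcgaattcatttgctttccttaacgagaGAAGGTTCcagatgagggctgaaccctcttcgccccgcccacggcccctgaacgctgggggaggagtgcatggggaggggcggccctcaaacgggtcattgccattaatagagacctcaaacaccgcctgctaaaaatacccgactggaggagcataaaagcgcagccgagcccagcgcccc
The paired repeat was in 9 of the 15 windows, against 11.6% of all 35116 windows, and HSPH1 was the 1 member of 10 without it. The longer form was in 4 of the 15 windows, against 0.441% of all, and these belong to HSPA6, HSPA8, HSP90AA1 and HSP90AB1. In HSPA1A and HSPA1B the repeat began 106 and 105 bases before the start, and the paired windows were identical at 235 of 249 aligned bases (94.4%). DNAJB1 had 2 paired repeats, 77 and 47 bases before its start, and HSPB1 had 1, 182 bases before. The members were chosen as heat shock genes, and such repeats are known from their promoters, so these counts are no test. A match is a description of letters and says nothing of a factor's binding in these cells.

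The values below are levels, meaning log2 of a probe's processed signal minus the 75th percentile of the same array, and changes, meaning the miR-891b level minus the NC1 level in the same line. A gene with several probes is represented by its brightest, and it counts as measured in a line where the scanner software marked that probe as well above background in both samples. With 1 array a group no change has a replicate check or a p-value, and a change is called only at 2-fold or more. Changes of single spots can be judged only against the scatter among repeat spots of one probe, whose median SD was 0.061 in HCT116 (276 probes) and 0.071 in A549 (287 probes) on the log2 scale. That scatter is within an array and leaves out the variation between cultures. The arrays had 44.7% to 50.3% of probes well above background and 0 saturated spots. Of the markers fixed for each line, 6 of 6 A549 genes were higher in A549. For HCT116, 5 of 6 genes were higher in HCT116, LGALS4 being 5.11 higher in A549. Among these 5, CDH1 hardly separated the lines, with an A549 minus HCT116 difference of -0.24 with NC1. Both arrays of a line shared a slide, so line and slide cannot be told apart, and bulk RNA cannot tell fewer cells of a kind from less RNA per cell.

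miR-891b was followed by different readings of the chaperones in the 2 lines. In A549, 9 of 10 members were below NC1 (8 of 10 under quantile normalization, where HSP90AB1 and DNAJA1 were above) and DNAJB1 was the 1 member past 2-fold, at 2.14-fold lower. In HCT116, 7 of 8 measured members were slightly above NC1, and HSPB1 alone was below, at 1.62-fold lower. Over all measured genes, 55.5% were below NC1 in HCT116 and 55.6% in A549. HSPB1 was also the only member lower in both lines among the 8 measured in both. Across all 21336 genes measured in A549, 5.57% were 2-fold lower or more and 4.01% 2-fold higher or more, so 1 of 10 members is near the background. In HCT116, with 19105 genes measured, 0.843% were 2-fold lower or more and 1.16% higher, and 0 of 8 members were past 2-fold either way. The median change of the members was 0.13 in HCT116 and -0.47 in A549, against -0.041 and -0.059 over all measured genes.

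**Figure D1:**
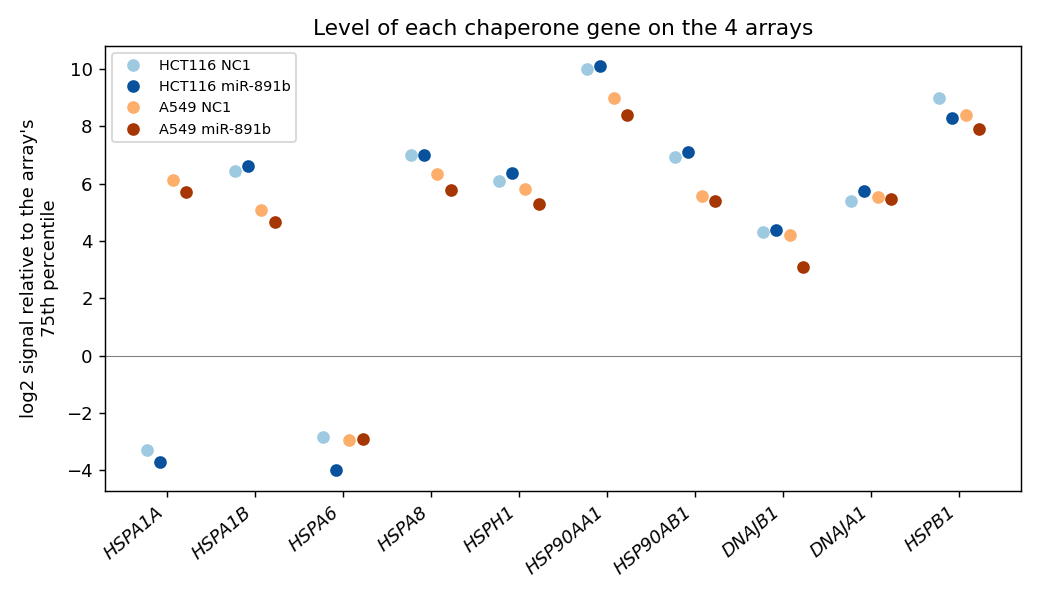
Level of each chaperone gene on the 4 arrays (vertical axis, log2 signal of its brightest probe, scaled to the 75th percentile of its array), 1 point per array. HSPA1A lies near 6 in both A549 samples and below -3 in both HCT116 samples, and levels of different genes are not comparable because probes differ.

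Of the inducible HSP70 genes, HSPA1A and HSPA1B lie next to each other on chromosome 6 and encode almost the same protein. The HSPA1A probe (hg19 chr6:31785491-31785550, plus strand) was printed on 10 spots. In A549 NC1 these spots read 4981 to 5351 processed intensity units, with a mean of 5174 ± 136 (SD over 10 spots). In A549 miR-891b they read 3655 to 4135, with a mean of 3897 ± 183. Each of the 10 spots was lower with miR-891b, and the ranges of spots did not overlap. How many other repeated probes did the same was not counted. The change was -0.40 ± 0.081 (SD over 10 spots of the same RNA, which are not replicates of the condition). The HSPA1A change in A549 was -0.11 under quantile normalization, and -0.099 with normexp background correction before it.

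In HCT116 the same HSPA1A spots were near background. They read 4.17 to 10.2 units in NC1, where 3 of 10 spots were well above background, and 2.84 to 5.47 units over the 8 spots used in miR-891b. The other 2 spots of the miR-891b array carried an outlier mark, and 1 of them was the only spot of 10 well above background there. That array had 10.5% of its spots in areas of stray signal. With NC1, the HSPA1A level in A549 was 684-fold above the probe's own level in HCT116, which was near background. That figure is a plain ratio and no lower bound. With miR-891b, HSPA1A was at least 461-fold higher in A549, a bound set against the lowest detected signal of the HCT116 array. That signal lay above the probe's own level there. Detection in both A549 samples and in neither HCT116 sample was found for 5.09% of all 43310 genes with values.

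HSPA1B, read by 1 spot (hg19 chr6:31797870-31797929, plus strand), was bright in both lines. Its levels were 6.44 and 6.60 in HCT116 NC1 and miR-891b, and 5.09 and 4.65 in A549. The A549 minus HCT116 difference with NC1 was thus -1.35 for HSPA1B, opposite in direction to that of HSPA1A. Of 9 members detected in both NC1 samples, 3 (HSPA1B, HSP90AA1 at -1.01 and HSP90AB1 at -1.37) were at least 2-fold lower in A549, where 16.2% of 19218 genes were, and 0 were 2-fold higher, where 11.1% were. The probes of this gene pair shared no run longer than 7 of 60 bases, and the HSPA1A probe stayed near background in HCT116, where the HSPA1B probe was bright. With miR-891b, HSPA1B differed by 0.16 in HCT116 and -0.44 in A549.

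**Figure D2:**
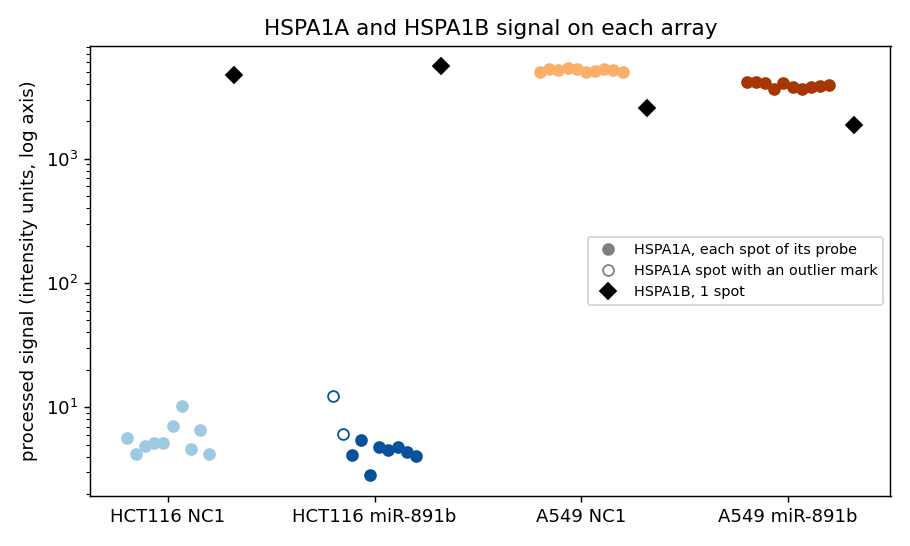
Processed signal (vertical log axis, intensity units) of each HSPA1A spot and of the single HSPA1B spot on the 4 arrays, with open circles for spots carrying an outlier mark. The A549 spots of HSPA1A lie between 3655 and 5351 units and the HCT116 spots used lie between 2.84 and 10.2 units, while HSPA1B is bright on every array.

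HSPA6, a strictly stress-induced HSP70 gene, was dim everywhere. Its brighter probe (hg19 chr1:161576964-161577023) had levels of -2.85 and -4.01 in HCT116 NC1 and miR-891b, and -2.94 and -2.93 in A549. It was well above background in every sample except HCT116 miR-891b, which gives a ratio of at least 1.22 for NC1 over miR-891b in that line. The other probe (chr1:161577785-161577844) was well above background only in A549 miR-891b, at least 1.48-fold above A549 NC1, whereas the brighter probe differed by 0.0094 there. The HSPA6 probes thus disagreed in A549.

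HSPA8, the constitutive HSP70 of the cytosol (hg19 chr11:122929478-122929537, minus strand), had levels of 7.0 and 7.02 in HCT116 and 6.33 and 5.79 in A549. The HCT116 values differed by 0.015, less than the scatter of repeat spots. In A549 the change was -0.54, a 1.46-fold lower signal with miR-891b, and 16.9% of measured genes had a lower change.

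HSPH1 encodes the HSP110 chaperone that frees HSP70 of ADP. Its brighter probe (hg19 chr13:31710796-31710855, minus strand) had levels of 6.11 and 6.36 in HCT116 and 5.81 and 5.28 in A549. The other probe (chr13:31711509-31711568) had 3.84 and 4.18, and 3.49 and 3.12. Both probes read higher with miR-891b in HCT116, with changes of 0.25 and 0.34, and lower in A549, with changes of -0.53 and -0.37.

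HSP90AA1, the inducible HSP90 gene, was covered by 3 probes on the minus strand of chromosome 14. The brightest (hg19 chr14:102547395-102547454) had levels of 10.01 and 10.10 in HCT116 and 9.0 and 8.38 in A549. The next (chr14:102549453-102549512) had 8.72 and 8.99, and 7.86 and 6.99, and the dimmest (chr14:102550163-102550222) had 6.56 and 6.76, and 5.80 and 5.04. The 3 probes kept the same direction in each line. In HCT116 they differed by 0.092, 0.27 and 0.20, and in A549 by -0.62, -0.86 and -0.76. The widest of these is a 1.82-fold lower signal in A549, and 14.1% of measured genes had a lower change than the brightest probe.

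HSP90AB1 encodes the constitutive HSP90. Its brighter probe (hg19 chr6:44219983-44220819, plus strand, longer than 60 bases and so split by an intron) had levels of 6.93 and 7.09 in HCT116 and 5.56 and 5.38 in A549. The other (chr6:44219211-44219270) had 5.54 and 5.76, and 4.42 and 4.29. Its changes were the smaller of the HSP90 pair in A549, at -0.18 and -0.12, and were 0.16 and 0.22 in HCT116. The A549 value turned to 0.062 under quantile normalization and to 0.093 with normexp background correction before it, so HSP90AB1 has no settled direction there.

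DNAJB1, the stress-induced J-domain partner of HSP70, showed the largest A549 change of the set. Its single spot (hg19 chr19:14625803-14625862, minus strand) had levels of 4.30 and 4.39 in HCT116, and 4.2 and 3.10 in A549. The processed signals were 1082 and 1193 units in HCT116, and 1373 and 636 units in A549. The first 3 samples were close together and A549 miR-891b stood below them. The change of -1.10 in A549 was lower than that of all but 4.35% of measured genes, and it fell short of 2-fold with normexp, at -0.94.

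DNAJA1, a constitutive J-domain protein (hg19 chr9:33036682-33037066, plus strand, also split by an intron), had levels of 5.38 and 5.73 in HCT116 and 5.53 and 5.46 in A549. Its HCT116 change of 0.35 was the highest of the set, with 10.8% of measured genes higher. In A549 it differed by -0.070, and by 0.17 and 0.21 under quantile normalization and normexp, so it too has no settled direction in that line.

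HSPB1, the small heat shock protein also called HSP27, was the only measured member that read lower in HCT116. Its brightest probe (hg19 chr7:75933550-75933609, plus strand) had levels of 8.99 and 8.29 in HCT116 and 8.40 and 7.90 in A549. A neighbouring probe (chr7:75933451-75933510) had 8.62 and 8.02, and 7.98 and 7.54. The dimmest, upstream of both (chr7:75931924-75931983), had 2.27 and 2.16, and 2.0 and 1.38. All 3 probes were lower with miR-891b in both lines, but by unequal amounts: the changes were -0.70, -0.59 and -0.11 in HCT116 and -0.50, -0.44 and -0.61 in A549. At 1.5-fold, HSPB1 was the 1 of 8 members called lower in HCT116, where 5.65% of genes were, and 3.37% of genes had a lower change. That 1.5-fold call is lost under quantile normalization (-0.50), with normexp (-0.48) and with the mean over probes (-0.47). Being lower in both lines, by any amount, was shared by 33.8% of the 18064 genes measured in both.

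Counted by probe, 11 of 14 measured probes were higher in HCT116, the other 3 being those of HSPB1, with a median of 0.16. In A549 15 of 16 measured probes were lower, with a median of -0.47, and 13 of 16 were under quantile normalization and 12 of 16 with normexp. Under 75th percentile scaling, 55.6% of all genes measured in A549 were below NC1, and of the brightest 10% there 69.7% were. In HCT116 these shares were 55.5% and 64.8%. Of the brightest 10% in A549, 42.9% were below NC1 under quantile normalization and 43.2% with normexp. Probes of a gene read the same transcripts, so they are repeats of a reading and not independent. Under 75th percentile scaling, higher in HCT116 and lower in A549 held for 7 of 8 members measured in both lines, and for 23.3% of the 18064 genes. HSP90AB1 and DNAJA1 left that pattern under quantile normalization and with normexp, being above NC1 in A549 there. At 1.5-fold in A549, 2 of 10 members (HSP90AA1 and DNAJB1) were lower, where 15.3% of genes were, and at 3-fold 0 of 10 were, against 1.53% of genes. HSP90AA1 lost its 1.5-fold call under quantile normalization (-0.17) and with normexp (-0.19).

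**Figure D3:**
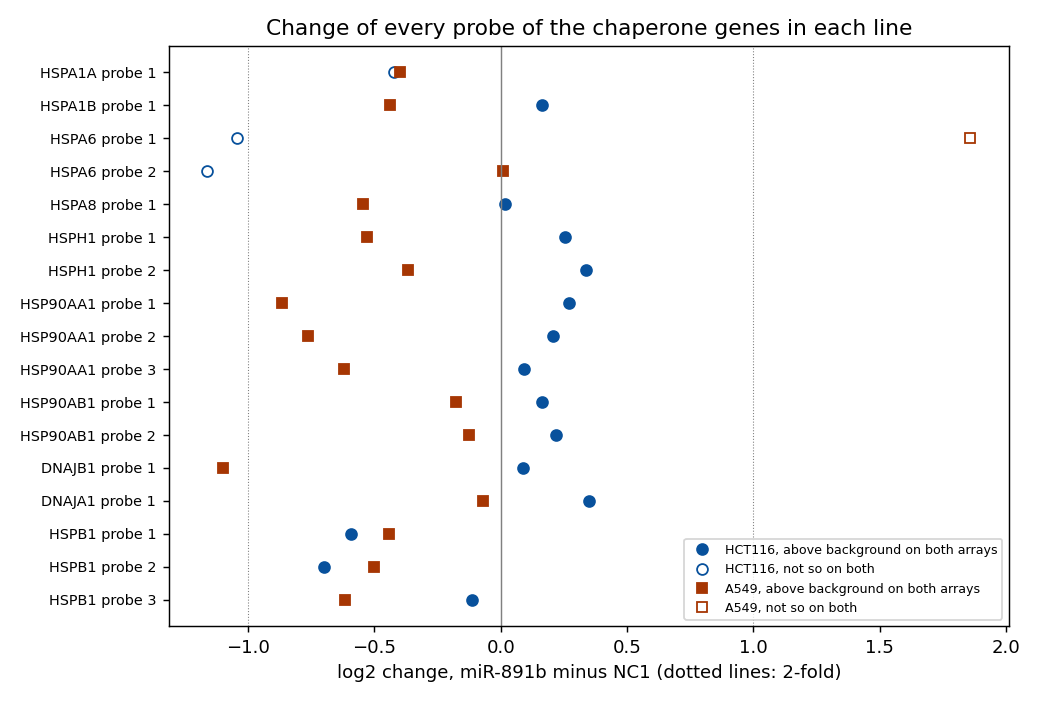
Change of each of the 17 probes (horizontal axis, log2, miR-891b minus NC1), circles for HCT116 and squares for A549, open where the probe lacked the above-background mark in either sample. Under 75th percentile scaling, in A549 15 of 16 filled squares lie left of 0, and in HCT116 11 of 14 filled circles lie right of it, with the 3 HSPB1 probes to the left.

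The A549 readings depended on how the arrays were scaled. Bright genes as a whole read lower in A549 miR-891b under 75th percentile scaling: the brightest 10%, a group chosen after the data were seen, had a median change of -0.23 over 2134 genes, and the 8 members among them had -0.47. Under quantile normalization these medians were 0.077 over the bright genes, members included, and -0.14 over the 8 members. HSPA1A differed by -0.11 there, HSPA1B by -0.18, HSPA8 by -0.27, HSPH1 by -0.24 and HSP90AA1 by -0.17. DNAJB1 stayed near 2-fold at -1.0, and HSPB1 moved to -0.10. In HCT116 no measured member changed sign under any of the settings tried, and HSPB1 was at -0.50 with quantile normalization. The part that array scaling has in the A549 result was not tested.

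**Figure D4:**
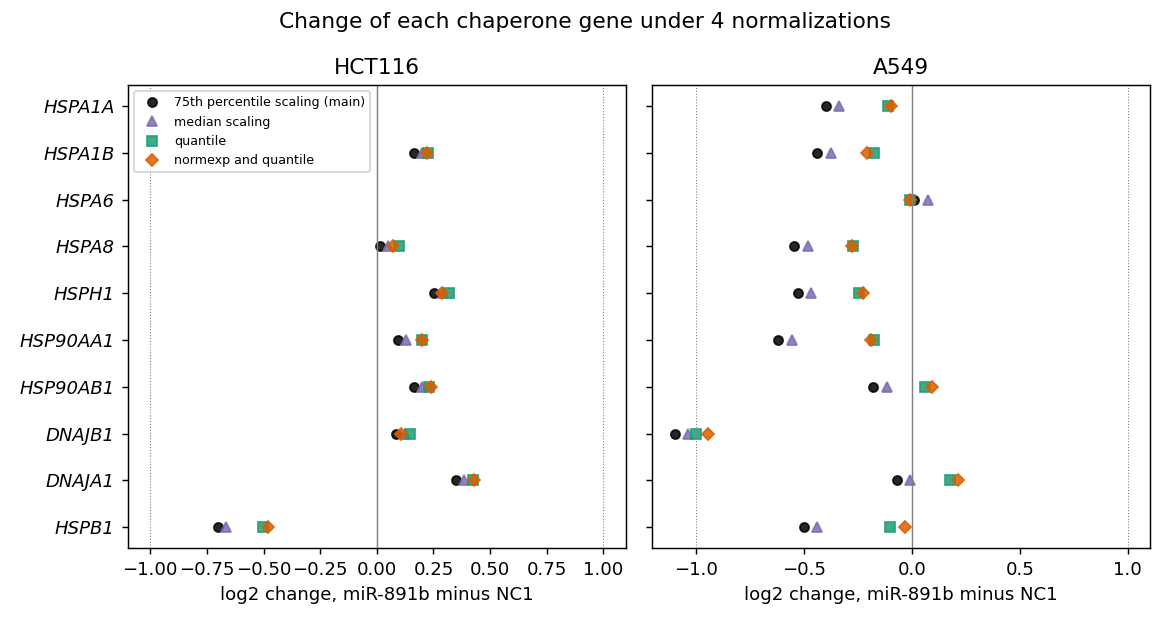
Change of each chaperone gene (horizontal axis, log2, miR-891b minus NC1) in HCT116 and A549 under 4 normalizations, with dotted lines at 2-fold. In A549 most members move towards 0 under quantile normalization while DNAJB1 stays at -1.0, and HSP90AB1 and DNAJA1 cross 0.

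The A549 arrays also differed in genes of cell division. In a list of 16 mitotic genes, 16 of 16 passed 2-fold in the lower direction in A549, with changes from -1.93 to -1.53, whereas 0 of 16 were past 2-fold in HCT116, with a median of 0.054. Over all measured genes, 5.57% were 2-fold lower or more in A549 and 0.843% in HCT116. The list was chosen with earlier results of these data known. The part of mitotic genes in the chaperone values was not tested.

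**Figure D5:**
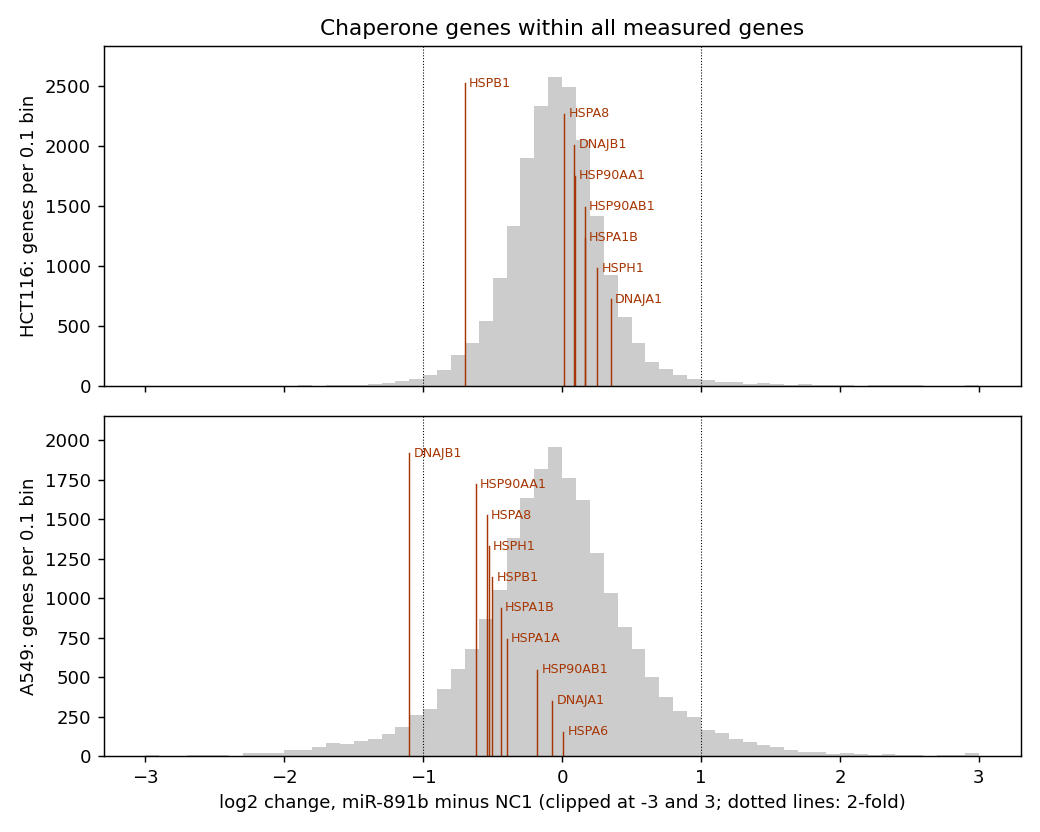
Histogram of the log2 change (horizontal axis) over 19105 measured genes in HCT116 and 21336 in A549, with a line for each measured chaperone gene and dotted lines at 2-fold. Only DNAJB1 in A549 lies past a dotted line, with 4.35% of genes lower, and HSPB1 in HCT116 lies in the lower tail inside the line, with 3.37% of genes lower.

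An additive limma model over the 4 arrays, with treatment and line as terms, asked for a shift shared by the lines. It called 0 of 22712 genes after Benjamini-Hochberg adjustment, with 1214 (5.35%) at an unadjusted p under 0.05, of which 0 were members. HSPB1 had -0.60 with a standard error of 0.24 and an adjusted limma p of 0.793, lower in 2 of 2 lines. Its value was -0.30 under quantile normalization, with an adjusted limma p of 0.845, and -0.26 with normexp, with an adjusted limma p of 0.815. DNAJB1 had -0.51 with a standard error of 0.37 and an adjusted limma p of 0.811. The fit has 1 residual degree of freedom, which limits what it can call.

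Partner genes from lists of chaperone families are given for comparison, 78 genes in all. In HCT116 0 of 71 measured partners passed 2-fold, with a median of 0.061. In A549 2 of 73 (2.74%) were at least 2-fold lower and 1 (1.37%) higher, with a median of -0.26. Over all measured genes, 5.57% were 2-fold lower or more and 4.01% higher in A549. In HCT116 these shares were 0.843% and 1.16%. The partners thus passed 2-fold no more often than genes at large. A list of 17 other HSP70 genes and HSP70 partners held nucleotide exchange factors, and also STUB1 and ST13. In it BAG3, which couples HSP70 to autophagy and is a known heat shock gene, fell by 1.90 in A549 and had -0.42 in HCT116. Its 1 spot lay in an area of stray signal on an HCT116 array. In A549 9 genes of that list of 17, BAG3 included, were below NC1, and 7 were under quantile normalization. Over all genes measured in A549, 55.6% were below NC1 under 75th percentile scaling. None of 13 measured J-domain genes passed 2-fold in A549, and 7 of them were below NC1, with a median of -0.0077. Under quantile normalization 3 of the 13 were below NC1, with a median of 0.20, and DNAJC5 was 2-fold higher, at 1.04.

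Of 14 HSP90 co-chaperones, which load clients onto HSP90 or pace its ATP cycle, 12 were below NC1 in A549 (11 under quantile normalization) and 0 passed 2-fold, with a median of -0.33. The prefoldin and CCT genes, which fold actin and tubulin, were below NC1 in A549 in 14 of 14 cases, with a median of -0.51, and in 13 of 14 under quantile normalization. CCT7 was the 1 past 2-fold, at -1.15, and it was at -0.94 under quantile normalization. In HCT116 the median of these 14 was -0.0036. Of 9 further small heat shock genes, 5 were measured in A549 and 0 passed 2-fold. The heat shock factors themselves stayed within 2-fold. HSF1, the main stress activator, differed by 0.011 in HCT116 and -0.33 in A549. HSF2 differed by 0.036 and -0.28, HSF4 by -0.32 and 0.36, and HSBP1, which binds HSF1, by -0.093 and -0.48.

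HSPB1 had the largest mean absolute change over both lines (0.60) of the members detected in all 4 samples, just above DNAJB1 (0.59), which was ahead under quantile normalization (0.57 against 0.30), normexp, median scaling and the mean over probes. The genes whose 4 levels ran most like those of HSPB1 were taken from 13754 other genes well above background on all arrays. Members, and genes with only a LOC or accession name, were left out. Likeness was the Euclidean distance between levels centred on each gene's own mean. The nearest were ABHD14B (0.079), STK4-AS1 (0.114), COL1A1 (0.123), C1orf228 (0.124) and LSM11 (0.133). ABHD14B differed by -0.80 in HCT116 and -0.46 in A549, against -0.70 and -0.50 for HSPB1.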

How the data were processed

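Total RNA of transfected HCT116 and A549 cells was labelled with Cy3 and hybridised to 1-colour arrays, 1 array in each of 4 groups, grouped by the samples' titles. Per the file headers, Feature Extraction 11.5.1.1 quantified the scans and hg19 is the build of the probe positions. Scanner output was deposited as intensity on a linear scale. A further deposited table gives log2 values processed by the authors, and how they were made is not given in the sources used here. Set against the scanner output scaled as below, they differed by a median of at most 0.0069 per array, and were used as 1 of the alternatives.

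Outlier-marked spots were dropped. The log2 processed signals of a probe's spots were averaged, and each array's 75th percentile over gene probes was subtracted. That percentile was 54.9 and 57.0 units for NC1 and miR-891b in HCT116, and 74.8 and 74.2 in A549. A probe on several spots counted as well above background where at least 50% of its spots were. The additive fit used limma 3.58.1 in R 4.3.3 on genes well above background on at least 2 arrays. It was also run on simulated data with shifts shared by the lines, and that outcome is not given here. Shifts that differ between the lines were not simulated. Other values came from Python 3.11.15.

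The members and the gene lists were chosen with earlier results of these data known. The text names all members, partner genes past 2-fold, the heat shock factors and the 5 genes nearest in pattern to 1 member. Sequences are from RefSeq tables for GRCh38.p14. Whether a probe lies in coding or untranslated sequence was not determined. Alternatives covered background correction, scaling, the choice of probe, the filter on dim probes, areas of stray signal, the threshold and the line term.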

Additional observations from a re-analysis of the deposited data

Results flagged for a closer look

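For 7 of 8 members measured in both lines, the miR-891b sample was above NC1 in HCT116 and below it in A549. The same held for 23.3% of the 18064 genes measured in both. With 1 array per group these differences between the lines were not tested, and the slide differs with the line. The change in A549 minus the change in HCT116 was -1.19 for DNAJB1, -0.78 for HSPH1 and -0.71 for HSP90AA1. It was -0.60 for HSPA1B, -0.56 for HSPA8, -0.42 for DNAJA1 and -0.34 for HSP90AB1. The same difference between the members' medians was -0.60. All of these differences are under 75th percentile scaling. Under quantile normalization the members' medians lay closer together, at 0.21 in HCT116 and -0.14 in A549. For HSP90AB1 and DNAJA1 the A549 change itself is above 0 under quantile normalization.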

How the results depend on the processing

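Each member's change was recomputed under 8 settings, the main one included. In HCT116 every measured member kept its sign under these. Over both lines, 3 of 18 member changes took the other sign under quantile normalization and the same number under normexp with quantile normalization. These were HSP90AB1 (0.062 and 0.093), DNAJA1 (0.17 and 0.21) and HSPA6 (-0.010 and -0.0090), all in A549, and the cause was not tested. Medians of the HCT116 members were 0.21 under quantile normalization and 0.21 with normexp, with -0.14 and -0.14 for A549. With normexp, 0 members were 2-fold lower in A549, and over all genes HCT116 had 13 lower and 32 higher and A549 had 415 and 348. Without spots in areas of stray signal, 140 genes were 2-fold higher in HCT116. With no filter on dim probes, 1 member (HSPA6) was lower in HCT116, HCT116 had 1434 lower and 2788 higher genes, A549 had 3080 and 2933, and the additive fit called 6 genes, none of them a member. A 1.5-fold threshold gave HCT116 1 lower member, 1080 lower and 747 higher genes, and A549 2 lower members, 3259 lower and 2369 higher genes. A 3-fold threshold gave 0 lower members in A549, with 13 lower and 68 higher genes for HCT116, 326 and 224 for A549. The share of 2-fold calls that were higher was 57.9% for HCT116 (71.1% with normexp, 64.3% with median scaling, 50% with quantile normalization and 49.1% without stray spots). For A549 it was 41.9% (45.6%, 49.7%, 49.8% and 41.2%). No paired analysis was possible because each group has 1 array and the labels carry no replicate numbers, apart from the additive fit, whose line term sets miR-891b against NC1 within each line. For the same reason no replicate could be left out, and the additive fit without an array has no residual degrees of freedom. HSPA1A in HCT116 and HSPA6 were limited by signals near background.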

Other observations

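Chaperones of the organelles, outside the cytosolic set, were listed as 6 genes. HSPA5, the HSP70 of the endoplasmic reticulum also called BiP, was at least 2-fold higher with miR-891b in A549, with a change of 1.23, and differed by 0.084 in HCT116. HSP90B1, the HSP90 of the same compartment, had 0.56 in A549 and -0.12 in HCT116, and passed 2-fold in A549 under quantile normalization, at 1.11. The mitochondrial chaperonin genes HSPD1 and HSPE1 had -0.43 and -0.66 in A549.

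The region around the HSPA1A probe was looked at after its values were seen. Within 50 kb on hg19, the member HSPA1B left out, 8 probes of 6 other genes were detected in all 4 samples. Their A549 NC1 minus HCT116 NC1 differences ran from -2.50 to -0.090, with a median of -1.46. With miR-891b, the NEU1 probe among them was 1.47 higher in A549. Detection in all 4 samples leaves out probes dim in HCT116, as HSPA1A itself was. HSPA1L, a testis-enriched HSP70 gene at -7.59 kb from that probe, was well above background in A549 only, at levels of -1.57 with NC1 and -1.88 with miR-891b.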
